A study of Drosophila melanogaster with 9 samples.

Results

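Larvae of the fruit fly Drosophila melanogaster reared at 300 eggs per ml (high density) were compared with larvae reared at 60 eggs per ml (medium density), a comparison that asks which transcripts differ between crowding and an intermediate density. Each density had 3 libraries, and each library held the RNA of a pool of 10 whole wandering larvae in the third instar. All larvae ate a sugar and yeast diet, and newly hatched larvae had been counted and assigned to densities at random. The labels do not give the strain, the sex of the larvae or the hour of collection. They also do not say whether the pools of a density came from separate cultures, so p-values measure the spread between these pools only. The 6 libraries are part of a series of 9, whose other 3 are from a low density of 5 eggs per ml. Those 3 entered the filter on low counts, the scaling and the estimate of spread, but not the comparison itself. They also entered the covariate fits and the correlations with testis transcripts described below. The members were the 12883 of 17759 deposited genes that passed a filter on low counts. They were separated into 87 genes on lists of testis transcripts, 31 other genes of the Y chromosome, 2057 genes of the X chromosome, 32 autosomal genes on lists of sex and early germ line genes, 22 mitochondrial or unplaced genes and 10654 remaining genes, which are autosomal.

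A wandering larva has stopped feeding and is about to form a puparium, under the control of rising titres of the steroid hormone ecdysone. In males of this stage the testes already hold spermatocytes, which transcribe a large set of genes used nowhere else, whereas the larval ovary has no comparable programme. The Y chromosome carries genes needed for sperm, and the single male X is transcribed at a raised rate by the dosage compensation complex, which contains the non-coding roX RNAs. Crowded larvae share less food and live in more of their own waste, which includes ammonia and urate.

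Crowding went with a broad shift in both directions. The edgeR quasi-likelihood test called 5102 genes at an adjusted p under 0.05, or 39.6% of those tested. Of these, 2749 (21.3% of tested genes) were higher and 2353 (18.3%) lower at high density, and 2586 of the called genes differed by more than 2-fold. Normalised levels (CPM, counts per 1e6 library counts scaled by TMM factors) of the 3 high and the 3 medium pools did not overlap in 3211 genes (24.9%) that were higher and in 3119 (24.2%) that were lower at high density. Library totals lay between 21943380 and 23621435 counts at medium density and between 16822606 and 25141308 at high density, where 3 counts, taken as the floor of detection, equal 0.106 to 0.156 CPM. The TMM factors were 0.906 to 0.947 at medium and 1.02 to 1.14 at high density, so the scaling bears on direction. Over all tested genes the log2 fold change (high minus medium density, ± SE where one is given) had a median of 0.01 under TMM scaling. Upper-quartile scaling moved that median to 0.11, and unscaled library totals moved it to 0.26. The number of calls fell to 2675 without medium replicate 1, to 3268 without medium replicate 3 and to 3080 without high replicate 2.

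Transcripts of the testis were higher at high density almost without exception. Of the 87 testis-listed genes tested (88 listed), 86 rose and 0 fell, with a median log2 fold change of 1.55. Over all tested genes 24.9% were higher without overlap between the densities, and among these 87 genes 82 did not overlap. Their summed level was 2801, 4955 and 6077 CPM in high replicates 1, 2 and 3, against 1539, 2278 and 1012 CPM in medium replicates 1, 2 and 3 and between 3019 and 3958 CPM in the low pools. The medium pools thus held the lowest sums, and high replicate 1 fell below all 3 low pools. The mean log2 CPM of the listed genes, used below as a testis score, was 4.11, 4.88 and 5.13 at high density and 3.17, 3.77 and 2.56 at medium density. In whole larvae, fewer cells of a type, fewer males in a pool of 10 and less RNA per cell cannot be told apart. The 86 calls fell to 51 without medium replicate 1, and the fit that carries roX level as a covariate called 3 of the 87.

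**Figure D1:**
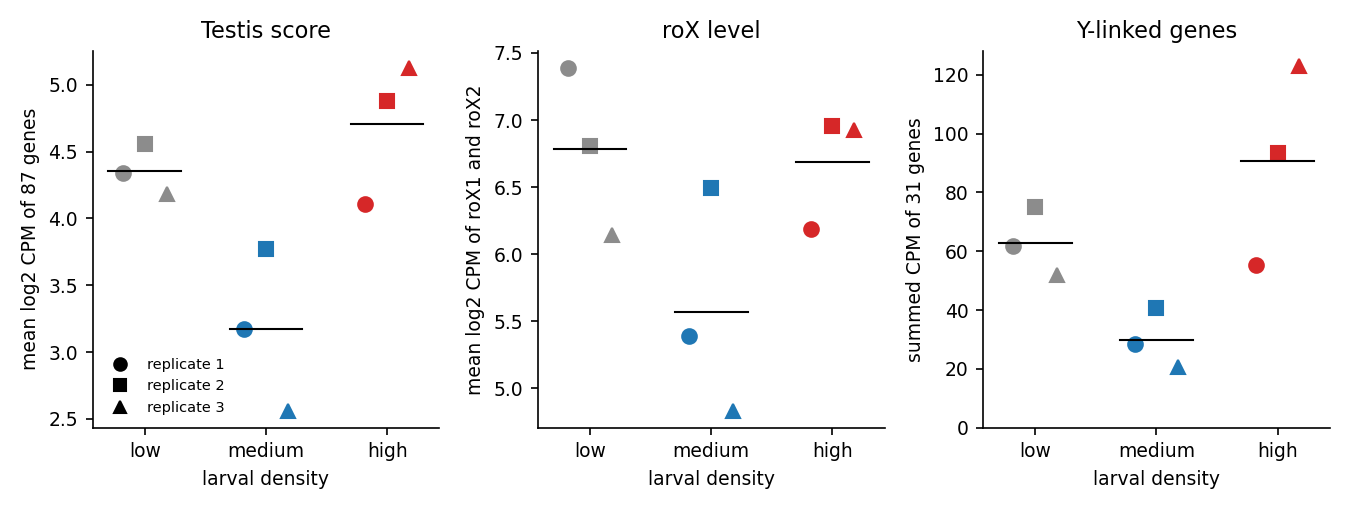
Testis score (mean log2 CPM of 87 genes), roX level (mean log2 CPM of both roX RNAs) and summed CPM of 31 Y-linked genes in each of the 9 libraries, with 1 point per pool of 10 larvae, marked by replicate, and a line at the mean of each density. The 3 high pools lie above the 3 medium pools for the testis score and the Y-linked sum, whereas the roX levels of these densities overlap.

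Of the 16 meiotic arrest regulators tested, 16 rose and 0 fell at high density, with a median log2 fold change of 1.38. The list held 6 rises without high replicate 2, 5 rises without medium replicate 1, and 9 rises without medium replicate 3. Meiotic arrest genes such as tomb switch on the spermatocyte programme, and the list also held genes of the meiotic divisions. The RNA-binding protein gene bol (build dm6, 3L, 9097629 to 9134405; the same build holds for each position given), needed for the meiotic divisions, was at 97.6, 148 and 189 CPM at high density and 49.5, 78 and 40.6 CPM at medium density (log2 fold change 1.37 ± 0.28, edgeR adjusted p 0.00977). The cdc25-type phosphatase gene twe was at 20.9, 36.2 and 41.4 CPM against 12.2, 19 and 8.69 CPM (log2 fold change 1.3 ± 0.32), and the meiotic arrest gene tomb had the largest change of the list, 1.93 ± 0.28. The call of twe was lost without high replicate 2 or medium replicate 1. High replicate 1 was the lowest and high replicate 3 the highest of the crowded pools for bol and twe. The testis score has the same order, but both genes are among those averaged in it.

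The 42 sperm structural and spermatid genes tested held 42 rises and 0 falls, and their median log2 fold change was 1.56. S-Lap1 (3L, 8617235 to 8619474), a sperm leucyl aminopeptidase, was at 227, 424 and 507 CPM at high density and 132, 189 and 84.2 CPM at medium density (log2 fold change 1.51 ± 0.35, edgeR adjusted p 0.0123). For loopin-1, another sperm aminopeptidase, the levels were 162, 301 and 369.7 CPM against 91.8, 135 and 65 CPM (log2 fold change 1.51 ± 0.34). The testis tubulin gene betaTub85D was at 120.2, 222 and 263 CPM against 69.2, 94.9 and 42.8 CPM (log2 fold change 1.55 ± 0.34). S-Lap genes are near copies of one another, and part of the S-Lap1 count is fractional, so the share of each copy is uncertain. Among 14 tested testis copies of proteasome subunits, 13 were called higher and 0 lower (median log2 fold change 1.61). The exception was Rpt6R, an ATPase copy of the regulatory particle, at 26.9, 35.7 and 43.7 CPM against 30.5, 33.1 and 31.6 CPM (log2 fold change 0.16 ± 0.15, edgeR adjusted p 0.44). Rpt6R overlapped between the densities, while its neighbour in function Rpt3R, at 16.8, 23.9 and 27.1 CPM against 9.23, 13.1 and 7.64 CPM, did not (log2 fold change 1.18 ± 0.26). Of the 15 other testis copies of housekeeping genes tested, 15 rose and 0 fell at high density, with a median log2 fold change of 1.56. The list held 9 rises without medium replicate 1. They included the chaperonin copies Hsp60C (log2 fold change 1.56 ± 0.34) and Hsp60B (log2 fold change 1.6 ± 0.37, not called without medium replicate 1) and the translation factor copy eIF4E3 (log2 fold change 1.51 ± 0.33).

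Genes of the Y chromosome rose as well. Of 31 tested Y-linked genes (123 in the deposited table), 23 rose and 0 fell, with a median log2 fold change of 1.7. Over all tested genes 24.9% were higher without overlap, and among these 31 genes 25 did not overlap. Their summed level was 55.5, 93.5 and 123 CPM in the high pools and 28.5, 40.6 and 20.6 CPM in the medium pools. Among 12 tested listed Y-linked male fertility genes, 11 were called higher and 0 lower (median log2 fold change 1.9). There were 7 rises without medium replicate 1. The sperm dynein heavy chain gene kl-2 was at 5.11, 9.37 and 14.8 CPM at high density and 3.03, 5.1 and 2.25 CPM at medium density (log2 fold change 1.49 ± 0.42, edgeR adjusted p 0.0238) and lost its call without high replicates 2 or 3 or medium replicates 1 or 3. CCY, which codes for a coiled-coil protein, was at 5.4, 9.78 and 11.7 CPM against 2.98, 3.4 and 1.55 CPM (log2 fold change 1.75 ± 0.36, edgeR adjusted p 0.00961). FDY was at 6.96, 8.12 and 10 CPM against 4.13, 5.28 and 4.19 CPM and changed least of the 3 most abundant (log2 fold change 0.88 ± 0.19). The other Y-linked genes did not pass the filter on low counts.

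Of the dosage compensation genes, a single one was called. The 7 genes of the dosage compensation complex tested held 1 rise (14.3%, against 21.3% of all tested genes) and 0 falls, and their median log2 fold change was 0.28. Unscaled library totals gave 4 rises and 0 falls. Leaving out single libraries gave 0 rises without high replicates 1 or 2, low replicate 2 or medium replicates 1 or 3 and 3 rises without medium replicate 2. The non-coding RNA roX1 (lncRNA:roX1, X, 3857230 to 3862697) was at 346, 585 and 574 CPM at high density and 196, 402 and 131 CPM at medium density, and its groups overlapped (log2 fold change 1.05 ± 0.45, edgeR adjusted p 0.0933). For roX2 (lncRNA:roX2) the levels were 15.2, 26.2 and 25.5 CPM against 8.89, 20.1 and 6.14 CPM (log2 fold change 0.93 ± 0.47, edgeR adjusted p 0.151), while the helicase gene mle stayed between 79.3 and 89.2 CPM in all 6 pools (log2 fold change 0.03 ± 0.06). The single call was that of the acetyltransferase gene mof (log2 fold change 0.39 ± 0.12, edgeR adjusted p 0.0323), which was not called without a filter or with whole counts only. The mean log2 CPM of both roX RNAs, used below as roX level, was 6.19, 6.95 and 6.92 at high density and 5.39, 6.49 and 4.83 at medium density, so that medium replicate 2 lay above high replicate 1.

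Genes of sex determination and of the early gonad gave calls in both directions. Of the 11 genes of sex determination and yolk tested, 2 (18.2%) rose and 4 (36.4%) fell at high density, against 21.3% and 18.3% of all tested genes. Their median log2 fold change was -0.18, and library totals alone gave 2 rises, 2 falls and a median of 0.07. The list held 2 rises and 1 fall without high replicate 2 and 2 rises and 2 falls without medium replicates 1, 2 or 3. The male courtship transcription factor gene fru (3R, 18414273 to 18545586) was at 64.3, 49.7 and 27.1 CPM at high density and 16.4, 14.4 and 18.6 CPM at medium density (log2 fold change 1.51 ± 0.28, edgeR adjusted p 0.00748). The female switch gene Sxl was at 219.6, 164 and 194 CPM against 252, 265 and 285 CPM (log2 fold change -0.47 ± 0.16, edgeR adjusted p 0.0443) and lost its call without high replicates 2 or 3, low replicate 2 or medium replicates 1, 2 or 3. Sxl was also not called with library totals alone, upper-quartile factors, the replicate block or mitochondrial and ribosomal RNA genes left out. The yolk protein gene Yp3 was at 0.76, 0.364 and 0.318 CPM against 2.79, 1.12 and 3.45 CPM (log2 fold change -2.33 ± 0.56, edgeR adjusted p 0.0142) and lost its call without high replicate 2. In the early germ line and gonad list of 23 tested genes, 7 (30.4%) rose and 3 (13%) fell (median log2 fold change 0.48), and with library totals alone 12 rose and 1 fell. Without high replicate 2 that list held 2 rises and 2 falls, without medium replicate 1 it held 2 rises and 1 fall, and without medium replicate 3 it held 3 rises and 1 fall. Of its members, the germ cell helicase gene vas was at 3.88, 5.26 and 3.81 CPM against 4.09, 3.67 and 5.09 CPM (log2 fold change 0.01 ± 0.24, edgeR adjusted p 0.981). The germ line differentiation gene bam was at 2.41, 2.91 and 2.23 CPM against 1.92, 1.92 and 2.0 CPM (log2 fold change 0.36 ± 0.2, edgeR adjusted p 0.189); neither was called. The transcription factor genes chinmo and zfh1, which act in somatic stem cells of the testis and also in other tissues, were called in opposite directions. Levels of chinmo were 111, 111 and 99.1 CPM against 62.2, 68.1 and 62.6 CPM (log2 fold change 0.73 ± 0.07, edgeR adjusted p 0.00135), and those of zfh1 were 45.2, 43.7 and 52.1 CPM against 77.3, 76.2 and 78.8 CPM (log2 fold change -0.72 ± 0.08, edgeR adjusted p 0.00169). The difference between spermatocyte genes and early germ line genes was not tested.

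On the X chromosome the balance of rises and falls depended on the scaling. Of 2057 tested X-linked genes, 381 rose and 390 fell, or 37.5% called, with a median log2 fold change of -0.04. Under library totals alone there were 693 rises and 159 falls with a median of 0.2, and under upper-quartile factors 457 rises and 262 falls with a median of 0.05. Among the remaining autosomal genes 39.4% were called, with a median of 0.01. The autosome arms ranged from 38.5% called on 3R through 38.9% on 3L and 40.7% on 2R to 42.6% on 2L. On the small chromosome 4, 23 of 98 tested genes were called (23.5%), of which 5 rose and 18 fell. The X-linked calls fell to 393 without medium replicate 1, 460 without high replicate 2 and 479 without medium replicate 3, and to 146 with roX level as a covariate.

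The largest X-linked rises were those of the neighbouring new-glue genes ng1, ng2 and ng3, which code for secreted proteins of the larval salivary gland. The gene ng2 kept its call in each of the 21 alternative fits that tested it, at 15.9, 21.5 and 18 CPM in the crowded pools and 1.25, 2.01 and 0.899 CPM at medium density (log2 fold change 3.72 ± 0.34, edgeR adjusted p 0.0012). The other two had log2 fold changes of 4.44 ± 0.46 (ng1) and 3.53 ± 0.59 (ng3), but ng1 overlaps dnc on the same strand, and counts of ng1 and ng2 are in part fractional. Among X-linked falls, vanin-like (X, 6200188 to 6202559), which codes for a relative of pantetheine hydrolases, was at 6.54, 3.9 and 2.47 CPM at high density and 46, 29.1 and 39.7 CPM at medium density (log2 fold change -3.15 ± 0.42, edgeR adjusted p 0.00271). CG10962, which overlaps the non-coding gene lncRNA:CR43836 on the same strand, was at 15.9, 14.5 and 13.2 CPM against 97.5, 66.6 and 88.9 CPM (log2 fold change -2.54 ± 0.16, edgeR adjusted p 0.000459). Levels of CG15772 were 1.14, 1.61 and 0.671 CPM against 6.39, 4.25 and 5.69 CPM (log2 fold change -2.27 ± 0.42, edgeR adjusted p 0.00766). These 6 genes were chosen among those whose CPM did not overlap between the densities.

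**Figure D2:**
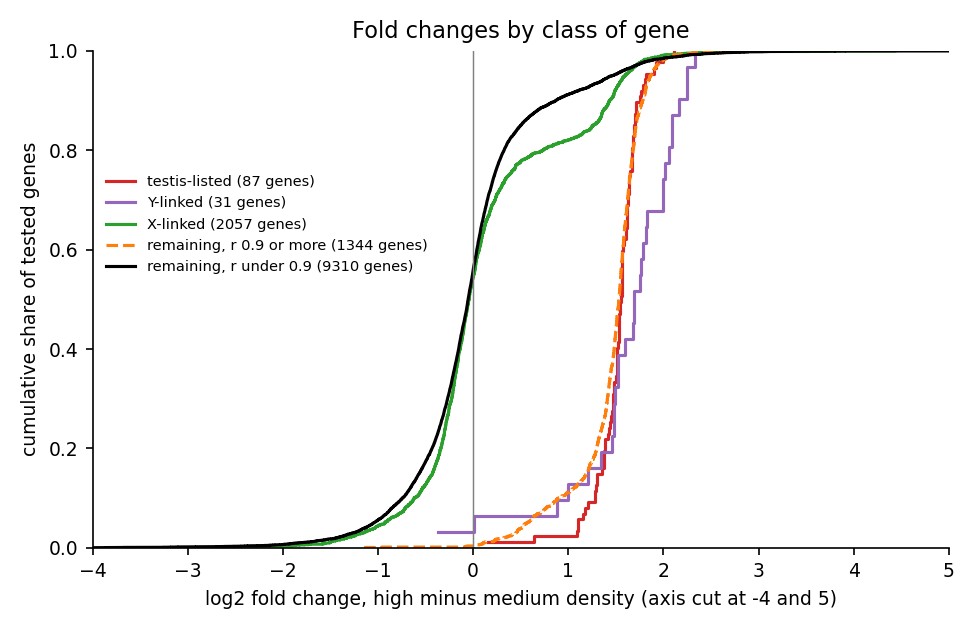
Cumulative share of tested genes (y axis) by log2 fold change, high minus medium density (x axis, cut at -4 and 5), for testis-listed, Y-linked and X-linked genes and for remaining genes, which are split by r, the correlation of a gene with the testis score within densities. Testis-listed genes and the remaining genes with r of 0.9 or more centre on 1.55 and 1.53, whereas X-linked genes and the other remaining genes centre near 0.

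Genes outside the testis lists also varied with the testis score. For each gene, the correlation of its log2 CPM with the testis score was computed over the 9 libraries after the mean of each density was subtracted, so that the difference between densities played no part in it. The 9 points share their libraries with the score, and the correlation serves here to sort genes. Of the 10654 remaining genes, 1344 reached a correlation of 0.9, and 1235 of them rose and 2 fell at high density, with a median log2 fold change of 1.53. The other 9310 remaining genes held 1011 rises and 1951 falls (31.8% called), with a median of -0.05. Under library totals alone, however, the 9310 genes gave 2842 rises and 781 falls, and under upper-quartile factors 1452 rises and 1395 falls. Their 2962 calls fell to 1625 without medium replicate 1, 1705 without high replicate 2 and 1778 without medium replicate 3. On the X, 226 genes reached 0.9 and 210 of them rose, and 12 Y-linked genes did, of which 11 rose. The 78 testis-listed genes that did make up the score themselves. Across bins of the correlation the share called higher went from 3.04% of genes between -1 and -0.8 to 29% between 0.6 and 0.8, 59.2% between 0.8 and 0.9 and 91.9% between 0.9 and 1. The share called lower went from 15% in the first of these bins to 15.9%, 2.8% and 0.149% in the other three.

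**Figure D3:**
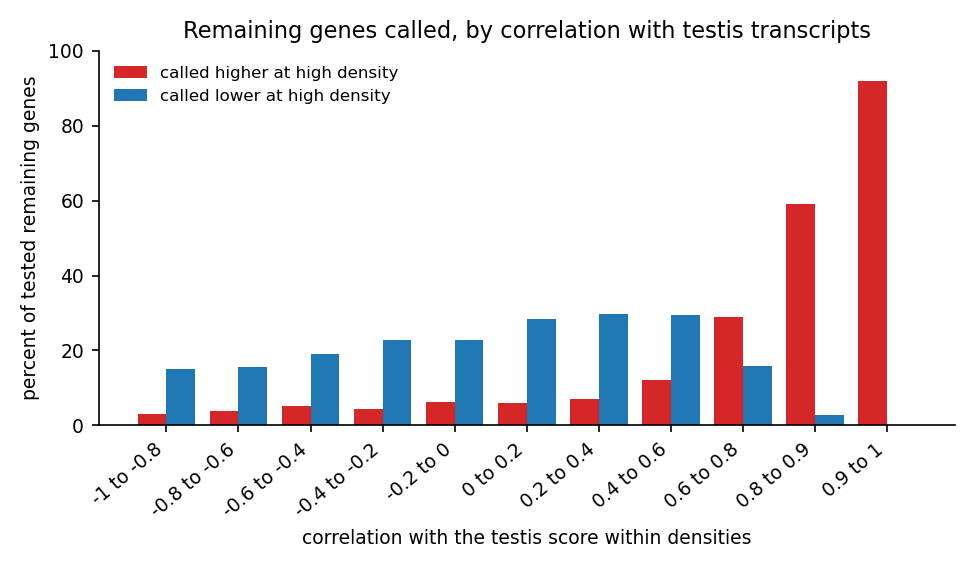
Share of remaining genes called higher or called lower at high density (y axis, percent) in bins of the correlation of each gene with the testis score within densities (x axis). The share called higher is 91.9% in the bin from 0.9 to 1, and the share called lower is 0.149% there.

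The remaining genes that rose with the testis score included copies of housekeeping genes that were on other lists. Among nuclear subunits of oxidative phosphorylation, which make the cell's ATP in mitochondria, 21 of 86 tested rose and 2 fell, and 20 of the 21 rises had a correlation of 0.9 or more. The rises were 24.4% of the list, against 21.3% of all tested genes. The list median of -0.01 became 0.24 under library totals alone and 0.09 under upper-quartile factors. Without medium replicate 1 the list held 13 rises, and without high replicate 1 it held 21 rises and 11 falls. COX4L, a second gene for a cytochrome c oxidase subunit, was at 28.7, 45.2 and 52.1 CPM at high density and 12.4, 17.7 and 8.64 CPM at medium density (correlation 0.997, log2 fold change 1.7 ± 0.29, edgeR adjusted p 0.00564). RpL37b, a second gene for a protein of the large ribosomal subunit, was at 8.69, 12.1 and 11.8 CPM against 3.56, 4.52 and 2.2 CPM (correlation 0.928, log2 fold change 1.66 ± 0.27, edgeR adjusted p 0.00525). The 3 high pools of both genes lay above the 3 medium pools. Of 483 tested long non-coding RNA genes among the remaining genes, 130 rose and 32 fell, whereas 2038 rises and 1892 falls were counted among 9792 protein-coding genes. In each list described from here on, at most 3 tested members reached a correlation of 0.9.

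Levels of genes that answer to ecdysone differed among the crowded pools. Among 21 tested genes of the ecdysone response, 1 (4.76%) was called higher and 7 (33.3%) lower, with a median log2 fold change of -0.7. Over all tested genes these shares were 21.3% and 18.3%. The list held 1 rise and 2 falls under library totals alone. There were 1 rise and 3 falls without high replicate 2, 1 rise and 12 falls without high replicate 3, 0 rises and 4 falls without medium replicate 1, and 1 rise and 4 falls without medium replicate 3. The early transcription factor gene br (X, 1575132 to 1664869), which specifies the pupal switch, was at 1291, 1220.1 and 1712 CPM at high density and 2071, 2370.4 and 2239 CPM at medium density (log2 fold change -0.66 ± 0.13, edgeR adjusted p 0.00951). Eip74EF, an early gene that codes for an ETS factor, was at 243, 226 and 401 CPM against 476, 582 and 510.1 CPM (log2 fold change -0.85 ± 0.2, edgeR adjusted p 0.0137), with no call under library totals alone. All 3 crowded pools lay below the medium pools for both genes, and high replicate 3 was the nearest to them. Eip78C, which codes for a nuclear receptor, was at 20.2, 29.3 and 406 CPM at high density and 375, 489 and 360.1 CPM at medium density (log2 fold change -1.42 ± 0.96, edgeR adjusted p 0.269). The nuclear receptor gene Hr4 was at 13.3, 13.7 and 161 CPM against 162, 205 and 170.4 CPM (log2 fold change -1.51 ± 0.85, edgeR adjusted p 0.189). High replicates 1 and 2 were far below every medium pool for Eip78C and Hr4, whereas high replicate 3 lay close to or within their range, and neither gene was called. The receptor gene EcR itself was at 238, 231 and 179 CPM against 227, 229.5 and 232 CPM (log2 fold change -0.09 ± 0.11, edgeR adjusted p 0.578). A rise was called for Hr38, a nuclear receptor that can partner the receptor subunit Usp, at 10.2, 3.54 and 2.15 CPM against 1.2, 0.894 and 1.35 CPM (log2 fold change 2.2 ± 0.54, edgeR adjusted p 0.0151). The call was lost without medium replicate 1. The hour of collection is not given, and its part in these values was not tested.

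The 17 genes of ecdysone synthesis and breakdown tested held 3 rises (17.6%) and 5 falls (29.4%), against 21.3% and 18.3% of all tested genes. Their median log2 fold change was -0.06, against 3 rises, 2 falls and a median of 0.19 with library totals alone. With upper-quartile factors the median was 0.04. Leaving out single libraries gave 1 rise and 3 falls without high replicate 2, 0 rises and 2 falls without medium replicate 1, and 0 rises and 3 falls without medium replicate 3. The Halloween genes phm, sad and dib, which code for the terminal hydroxylases of the pathway, were not called, with log2 fold changes of -0.02 ± 0.11, -0.07 ± 0.11 and -0.22 ± 0.24. Ptth, the brain hormone that stimulates ecdysone synthesis, had a log2 fold change of 1.15 ± 0.28 (edgeR adjusted p 0.0146) and lost its call without medium replicates 1 or 3. The Halloween gene sro had one of -0.74 ± 0.12 (edgeR adjusted p 0.00476). The glue genes of the salivary gland, whose products fix the pupa to its support, split in direction. Of the 13 new-glue and glue genes tested, 3 (23.1%) rose and 6 (46.2%) fell at high density, with a median log2 fold change of -0.45. There were 4 rises and 3 falls with library totals alone. Sgs7 was at 9329, 7927 and 5852 CPM at high density and 13470.3, 11899 and 13235 CPM at medium density (log2 fold change -0.74 ± 0.18, edgeR adjusted p 0.0137) and its neighbour Sgs8 had a log2 fold change of -0.98 ± 0.16, whereas the 3 rises were ng1, ng2 and ng3. Sgs1, at 4486, 2302 and 1705 CPM against 1592, 927 and 1672 CPM, was not called (log2 fold change 1.02 ± 0.36, edgeR adjusted p 0.0505), and neither was Eig71Ee (log2 fold change -0.07 ± 0.12).

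Genes of the fat body, the larva's store of fat and protein, were called lower or not called. Among 10 tested larval serum and fat body protein genes, 0 were called higher and 5 lower (median log2 fold change -0.88). Falls were 50% of the list, against 18.3% of all tested genes. With library totals alone the list held 1 rise and 5 falls. Fbp2 (2L, 9426784 to 9427917), a fat body protein gene, was at 4719, 4170.1 and 5262 CPM at high density and 12721, 8946 and 10776 CPM at medium density (log2 fold change -1.2 ± 0.16, edgeR adjusted p 0.00274). apolpp, which codes for the apolipoprotein of the main lipid carrier of the blood, was at 3357, 2104 and 2153 CPM against 6252, 4949 and 6207 CPM (log2 fold change -1.19 ± 0.21, edgeR adjusted p 0.00675). Mtp, which loads that carrier, was at 73.5, 56.6 and 59.2 CPM against 139, 107 and 116 CPM (log2 fold change -0.93 ± 0.13, edgeR adjusted p 0.00351). None of these 3 genes overlapped between the densities. The storage hexamerins were not called: Lsp2 was at 19662, 14028 and 10566 CPM against 20597, 11811 and 19229 CPM (log2 fold change -0.22 ± 0.27). Lsp1beta was at 10110.5, 4287 and 1199 CPM against 7526, 3245 and 5545 CPM (log2 fold change -0.07 ± 0.63). High replicate 3 was the lowest of the 6 pools for both of them.

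Several genes of lipid storage and use fell as well. Of the 12 genes of lipid storage and lipolysis tested, 1 (8.33%) rose and 5 (41.7%) fell at high density, with a median log2 fold change of -0.31. Over all tested genes 21.3% rose and 18.3% fell. Unscaled library totals gave 2 rises and 3 falls. Lsd-1 (3R, 23763857 to 23766662), the perilipin that coats lipid droplets and gates their breakdown, was at 111, 103 and 94.5 CPM at high density and 436, 356 and 379 CPM at medium density (log2 fold change -1.93 ± 0.1, edgeR adjusted p 0.000248). The lipase gene bmm was at 37, 34.6 and 35 CPM against 52.8, 46.2 and 49.1 CPM (log2 fold change -0.47 ± 0.1, edgeR adjusted p 0.0108), with no call under library totals alone. mdy, which codes for the enzyme of the last step of triglyceride synthesis, was at 26.3, 24.2 and 48 CPM against 74.4, 78.2 and 63.4 CPM (log2 fold change -1.13 ± 0.24, edgeR adjusted p 0.0103). For Lsd-1 the highest crowded pool was well under the lowest medium pool. The 16 genes of fatty acid oxidation tested held 0 rises and 12 falls (75%), and their median log2 fold change was -0.44. The list held 0 rises and 7 falls under library totals alone. whd, the carnitine palmitoyltransferase that admits fatty acids to mitochondria, was at 76, 81.5 and 80.4 CPM against 179, 154 and 173 CPM (log2 fold change -1.09 ± 0.1, edgeR adjusted p 0.0012). Mcad, the medium-chain dehydrogenase, was at 182, 182 and 161 CPM against 378, 272 and 334 CPM (log2 fold change -0.91 ± 0.14, edgeR adjusted p 0.00443), though it overlaps CG32373 on the same strand. Genes of fatty acid synthesis were called about as often as all genes: of 10 tested, 2 (20%) rose and 2 (20%) fell. Their median of -0.1 became 0.14 under library totals alone. ACC and ATPCL, which code for successive enzymes of the pathway, had log2 fold changes of 0.31 ± 0.06 and -0.7 ± 0.14.

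Nitrogen metabolism showed falls in ammonia and purine genes and a split within tyrosine breakdown. Among 16 tested genes of ammonia, urate and purine metabolism, 0 were called higher and 11 lower (median log2 fold change -0.73). Falls were 68.75% of the list, against 18.3% of all tested genes. There were 2 rises and 7 falls with library totals alone. Gs1, the mitochondrial glutamine synthetase that binds ammonia, was at 345, 325 and 665 CPM at high density and 1072, 1193 and 1239.9 CPM at medium density (log2 fold change -1.39 ± 0.25, edgeR adjusted p 0.00705), with the caveat that Gs1 overlaps ND-15 on the same strand. Its cytosolic partner Gs2 was at 183, 264 and 444 CPM against 787, 824 and 806 CPM (log2 fold change -1.44 ± 0.27, edgeR adjusted p 0.00776). High replicate 3 was the highest crowded pool for Gs1 and still lay below all medium pools. Of the purine synthesis genes, AdSL and Paics fell by similar amounts (-0.89 ± 0.1 and -1.02 ± 0.09 on the log2 scale), and the urate oxidase gene Uro, at 69, 43.8 and 12.6 CPM against 14.5, 1.74 and 10.2 CPM, was not called (log2 fold change 2.25 ± 0.81, edgeR adjusted p 0.0556).

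Of the 7 genes of phenylalanine and tyrosine breakdown tested, 3 (42.9%) rose and 1 (14.3%) fell at high density, with a median log2 fold change of 1.86. Over all tested genes 21.3% rose and 18.3% fell. The summed level of the list went the other way, at 181 to 240 CPM at high density and 292 to 337 CPM at medium density. It held 2 rises and 1 fall without high replicate 2 or medium replicates 1 or 3. The order of the pathway was not the order of the changes: Hn, phenylalanine hydroxylase at its head, was at 146, 104 and 89.6 CPM at high density and 263, 203 and 225 CPM at medium density and fell by 1.03 ± 0.17 on the log2 scale (edgeR adjusted p 0.00593). Hpd, the dioxygenase that makes homogentisate, was at 2.19, 9.99 and 8.02 CPM against 1.15, 0.536 and 0.699 CPM (log2 fold change 3.07 ± 0.63, edgeR adjusted p 0.0095). Faa, the last enzyme, was at 1.52, 8.33 and 5.33 CPM against 1.39, 1.21 and 1.05 CPM (log2 fold change 2.05 ± 0.54, edgeR adjusted p 0.0188) and lost its call without high replicate 2 or medium replicates 1 or 3. Faa was also not called by limma voom. Homogentisate is then opened by the dioxygenase hgo (2L, 11136393 to 11138565), which was at 6.63, 8.12 and 2.9 CPM at high density and 0.192, 0.0447 and 0.0499 CPM at medium density. The medium values of hgo rest on 4, 1 and 1 counts, against 157, 156 and 82 at high density, so the size of its fitted log2 fold change of 5.86 ± 0.67 (edgeR adjusted p 0.00199) is uncertain. The groups overlapped for none of these 4 genes, of which hgo and Hpd were chosen among genes without overlap.

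Among the immune lists, that of the peptidoglycan recognition proteins held the highest share of falls. The 12 peptidoglycan recognition protein genes tested held 0 rises and 8 falls (66.7%, against 18.3% of all tested genes), and their median log2 fold change was -0.85. Leaving out single libraries gave 5 falls without high replicate 2. PGRP-SC2, an amidase of the gut, was at 52.8, 45.5 and 44.9 CPM at high density and 101, 74.2 and 97.1 CPM at medium density (log2 fold change -0.93 ± 0.16, edgeR adjusted p 0.00563), and the log2 fold change of its relative PGRP-SC1b was -3.18 ± 0.53. Of the 28 genes of antimicrobial and Bomanin peptides tested, 0 rose and 5 fell at high density, with a median log2 fold change of -1.1. Their share of falls, 17.9%, was close to the 18.3% of all tested genes. The list held 2 rises and 4 falls without high replicate 1, 8 falls without low replicate 2 and 2 falls without medium replicate 1. Its median went to -2.01 without high replicate 2 and to -0.48 without medium replicate 1. Drs, the antifungal drosomycin, was at 39.6, 147 and 99.7 CPM against 444, 328 and 218 CPM (log2 fold change -1.79 ± 0.5, edgeR adjusted p 0.0228) and lost its call without medium replicate 1. The attacin gene AttC was at 0.929, 1.82 and 1.17 CPM against 12.5, 5.45 and 5.19 CPM (log2 fold change -2.58 ± 0.41, edgeR adjusted p 0.00486). IM1, a Bomanin gene, was near the floor in the crowded pools, at 0.0844, 0.572 and 0.0706 CPM, against 17.6, 1.74 and 3.0 CPM (log2 fold change -5.05 ± 1.76, edgeR adjusted p 0.0492) and lost its call without high replicates 1, 2 or 3, low replicate 3 or medium replicates 1 or 3. IM1 was also not called by limma voom, with any of the other scalings or with the replicate block. Its crowded pools held 2, 11 and 2 counts, so the size of its fitted fold change is uncertain. Of the high and medium pools, medium replicate 1 was the highest for Drs, AttC and IM1. In low replicates 1, 2 and 3, IM1 was at 0.348, 19.0 and 1.53 CPM.

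Among 18 tested haemocyte and melanization genes, 0 were called higher and 7 lower (median log2 fold change -0.72). Falls were 38.9% of the list, against 18.3% of all tested genes. There were 12 falls without high replicate 1. NimC2 (2L, 13980126 to 13983269), a Nimrod-family receptor of blood cells, was at 237, 244 and 289 CPM at high density and 588, 529.5 and 583 CPM at medium density (log2 fold change -1.14 ± 0.11, edgeR adjusted p 0.0012). Sp7, a protease that activates prophenoloxidase, was at 42.8, 43.9 and 70.4 CPM against 137, 137 and 119 CPM (log2 fold change -1.32 ± 0.19, edgeR adjusted p 0.00326). srp, the GATA factor of blood cells and fat body, was at 48.7, 46.6 and 56.3 CPM against 98.4, 92.5 and 102 CPM (log2 fold change -0.95 ± 0.09, edgeR adjusted p 0.0012). Defining markers of larval blood cells were not called: Hml was at 168, 81.7 and 44.2 CPM against 111, 65.7 and 107 CPM (log2 fold change 0.05 ± 0.42). The crystal cell marker PPO1 was at 47.6, 19.3 and 7.74 CPM against 44.2, 28.5 and 44.9 CPM (log2 fold change -0.66 ± 0.53). For both markers the densities overlapped and high replicate 3 was the lowest of the high and medium pools.

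Among genes of insulin and energy signalling the calls were falls. The 14 genes of insulin-like peptides and their signalling tested held 0 rises and 5 falls, and their median log2 fold change was -0.31. Falls made up 35.7% of the list, against 18.3% of all tested genes. With library totals alone the list held 2 rises and 5 falls. Ilp6 (X, 2331493 to 2334658), the insulin-like growth factor of the fat body, was at 62.6, 59.4 and 80.4 CPM at high density and 147, 153 and 147 CPM at medium density (log2 fold change -1.14 ± 0.14, edgeR adjusted p 0.00206). AkhR, the receptor of adipokinetic hormone, was at 8.78, 11.2 and 12.1 CPM against 29.6, 21.1 and 31.3 CPM (log2 fold change -1.36 ± 0.19, edgeR adjusted p 0.00341). The translation repressor gene Thor was at 588, 528 and 488 CPM against 880.3, 756 and 972 CPM (log2 fold change -0.7 ± 0.12, edgeR adjusted p 0.00676). The brain peptide gene Ilp2, at 6.08, 3.9 and 2.65 CPM against 5.09, 5.72 and 7.74 CPM, was not called (log2 fold change -0.56 ± 0.29), nor was the receptor gene InR (log2 fold change -0.02 ± 0.1).

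With TMM factors, main subunits of the proteasome fell by small amounts. Of the 32 main 26S proteasome subunits tested, 0 rose and 30 fell at high density, with a median log2 fold change of -0.35. Unscaled library totals gave 0 rises and 5 falls. All 32 were lower at high density without overlap, against 24.2% of all tested genes. An example was Rpn2, at 441, 376 and 434 CPM at high density and 532, 535 and 541 CPM at medium density (log2 fold change -0.36 ± 0.08, edgeR adjusted p 0.0109). Library totals alone ended the call of Rpn2. Among 78 tested genes of cytosolic ribosomal proteins, 2 (2.56%) were called higher and 30 (38.5%) lower (median log2 fold change -0.3), and 46 were not called. Over all tested genes 21.3% rose and 18.3% fell. The 2 rises, RpL37b and RpS10a, were the list's 2 calls of more than 2-fold. The list held 2 rises and 0 falls under library totals alone. There were 2 rises and 74 falls without high replicate 1, 1 rise and 3 falls without high replicate 2, 1 rise and 6 falls without high replicate 3, 1 rise and 17 falls without low replicate 1, 2 rises and 17 falls without low replicate 2, 2 rises and 8 falls without low replicate 3, and 1 rise and 1 fall without medium replicates 1 or 3. RpLP1, a stalk protein, was at 1428, 1204 and 1110.0 CPM against 1599, 1516 and 1602 CPM (log2 fold change -0.33 ± 0.1), and its call was lost with library totals alone, with upper-quartile factors and without any one of the libraries except high replicate 1. The medians of both lists were close in size to the shift that the choice of scaling makes in all genes.

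Many genes of mitosis rose by small amounts. The 35 genes of mitosis tested held 20 rises (57.1%, against 21.3% of all tested genes) and 0 falls, and their median log2 fold change was 0.29. There were 32 rises and 0 falls with library totals alone. Leaving out single libraries gave 13 rises without medium replicates 1 or 3. The mitotic kinase gene polo was at 138, 138 and 149 CPM at high density and 107, 117 and 104 CPM at medium density (log2 fold change 0.37 ± 0.07, edgeR adjusted p 0.00705). The cyclin gene CycB was at 107, 108 and 119.8 CPM against 83.5, 87.5 and 77.3 CPM (log2 fold change 0.43 ± 0.07, edgeR adjusted p 0.00518). Another mitotic kinase gene, aurA, had a log2 fold change of 0.79 ± 0.18, and none of the 20 rises had a correlation with the testis score of 0.9 or more. Of 34 tested DNA replication genes, 3 (8.82%) rose and 0 fell with TMM factors and 27 rose with library totals alone. Counts without single libraries ran from 0 to 9. Nerve and muscle lists depended on single libraries. Of the 18 nervous system genes tested, 9 (50%) rose and 1 (5.56%) fell at high density, with a median log2 fold change of 0.3. The summed level of the list went the other way, at 1206 to 1551 CPM at high density and 1604 to 1914 CPM at medium density. With library totals alone the list held 15 rises and 0 falls. The list held 4 rises and 1 fall without high replicate 1, 4 rises and 0 falls without high replicate 2, 5 rises and 1 fall without low replicate 3 or medium replicate 2, 1 rise and 0 falls without medium replicate 1, and 2 rises and 0 falls without medium replicate 3. The GABA receptor gene Rdl was at 26.2, 24.4 and 20.5 CPM against 14.1, 16.3 and 17 CPM (log2 fold change 0.58 ± 0.12, edgeR adjusted p 0.0106). Among 22 tested body wall muscle genes, 4 were called higher and 0 lower (median log2 fold change 0.48). The rises were 18.2% of the list, against 21.3% of all tested genes. Unscaled library totals gave 7 rises and 0 falls. There were 2 rises and 1 fall without high replicate 1, 2 rises and 0 falls without high replicate 2 or medium replicate 2, 13 rises and 0 falls without high replicate 3, and 1 rise and 0 falls without medium replicate 1. Msp300, a giant muscle protein, was at 888, 894 and 733 CPM against 624, 638 and 611 CPM (log2 fold change 0.43 ± 0.09, edgeR adjusted p 0.0109). The myosin heavy chain gene Mhc was at 898, 933 and 322 CPM against 463, 223 and 419.6 CPM and was not called (log2 fold change 0.96 ± 0.42, edgeR adjusted p 0.103). High replicates 1 and 2 were above and high replicate 3 within the medium range for Mhc.

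Falls among digestive serine proteases were about as frequent as among all genes. Of the 31 digestive serine protease genes tested, 0 rose and 5 fell at high density (16.1% against 18.3% called lower over all tested genes), with a median log2 fold change of -0.27. The list held 6 rises and 2 falls under library totals alone. The list held 8 rises and 4 falls without high replicate 3 and 0 rises and 1 fall without medium replicate 1. Jon65Ai, a gut protease of the Jonah family, was at 235, 221 and 232 CPM at high density and 425, 349 and 332 CPM at medium density (log2 fold change -0.69 ± 0.14, edgeR adjusted p 0.00916). The 20 genes of amylases, maltases and lysozymes tested held 0 rises and 6 falls, and their median log2 fold change was -0.38. The falls were 30% of the list, against 18.3% of all tested genes. There were 3 rises and 5 falls with library totals alone. Leaving out single libraries gave 4 rises and 6 falls without high replicate 3. The maltase gene Mal-A8 was at 1.81, 4.63 and 5.69 CPM against 18.1, 21 and 16.6 CPM (log2 fold change -2.19 ± 0.33, edgeR adjusted p 0.00435). Mal-A5 was at 297, 229 and 279 CPM against 527, 437 and 520.2 CPM (log2 fold change -0.88 ± 0.12, edgeR adjusted p 0.00276). Neither maltase gene overlapped between the densities.

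Cuticle protein genes moved in both directions. Among 68 tested cuticle protein genes, 14 were called higher and 7 lower (median log2 fold change 0.17). These are 20.6% and 10.3% of the list, against 21.3% and 18.3% of all tested genes. With library totals alone the list held 18 rises and 2 falls. There were 6 rises and 3 falls without high replicate 2, 5 rises and 3 falls without medium replicate 1, 9 rises and 4 falls without medium replicate 2, and 8 rises and 4 falls without medium replicate 3. TwdlG, of the Tweedle family of chitin-binding proteins, was at 4.9, 5.72 and 2.68 CPM at high density and 0.336, 0.313 and 0.649 CPM at medium density (log2 fold change 3.34 ± 0.39, edgeR adjusted p 0.00206). Cpr47Ec was at 7.34, 19.1 and 6.15 CPM against 1.73, 1.12 and 0.699 CPM (log2 fold change 3.19 ± 0.53, edgeR adjusted p 0.00548). Cpr49Ac, among the most abundant, was at 3211, 4268 and 7893 CPM against 9530.5, 11565 and 8855 CPM (log2 fold change -0.96 ± 0.31, edgeR adjusted p 0.0371) and lost its call without high replicates 1 or 2, low replicates 1 or 2 or medium replicates 1, 2 or 3. It was also not called with library totals alone or the replicate block. The crowded pools were above all medium pools for TwdlG and Cpr47Ec and below them for Cpr49Ac.

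Detoxification enzymes also split. The 56 glutathione and UDP-glycosyl transferase genes tested held 5 rises (8.93%) and 15 falls (26.8%), against 21.3% and 18.3% of all tested genes. Their median log2 fold change was -0.34. Unscaled library totals gave 7 rises and 6 falls. Rises numbered 2 without high replicate 3 and without low replicates 1 or 2, and 3 without low replicate 3. There were 1 rise and 10 falls without high replicate 2, 1 rise and 7 falls without medium replicate 1, and 0 rises and 10 falls without medium replicate 3. GstE9 (2R, 18409048 to 18409835), a glutathione S-transferase, was at 1.31, 2.55 and 1.7 CPM at high density and 9.28, 9.48 and 9.79 CPM at medium density (log2 fold change -2.37 ± 0.22, edgeR adjusted p 0.0012). Of the 74 cytochrome P450 genes tested, 10 rose and 15 fell at high density, with a median log2 fold change of 0.03. These are 13.5% and 20.3% of the list, against 21.3% and 18.3% of all tested genes. With library totals alone the list held 14 rises and 11 falls and a median of 0.27. Its rises were 4 without high replicate 2 and 5 without medium replicate 3, and without high replicate 1 its median was -0.26. Cyp6d5 was at 258, 269 and 230.0 CPM against 621, 599 and 709 CPM (log2 fold change -1.35 ± 0.1, edgeR adjusted p 0.000809). In the other direction, Cyp313a5 was at 2.03, 1.35 and 1.66 CPM against 0.192, 0.0894 and 0.0499 CPM (log2 fold change 3.86 ± 0.41, edgeR adjusted p 0.00165). Its medium values rest on 4, 2 and 1 counts, so the size of that fold change is uncertain. Cyp6a2, which has been linked to insecticide resistance and overlaps Epac on the same strand, was at 42.7, 43.4 and 8.87 CPM against 7.16, 2.5 and 3.15 CPM (log2 fold change 2.89 ± 0.61, edgeR adjusted p 0.0103), and limma voom did not call it. High replicate 3 was the lowest crowded pool for Cyp6a2 and lay just above the medium pools.

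Heat shock proteins were called about as often as all genes, with 37.5% of the list against 39.6%. Of 16 heat shock protein genes 2 rose and 4 fell, with a median of -0.01 that became 0.24 under library totals alone. Without high replicate 2 or medium replicate 1 the list held 1 rise and no fall. The chaperone gene Hsp83 was at 1968, 1751 and 1822 CPM at high density and 1345, 1394 and 1394 CPM at medium density (log2 fold change 0.42 ± 0.08, edgeR adjusted p 0.00802). The small heat shock gene Hsp23 was at 999, 1150.3 and 2655 CPM against 4055, 3884 and 3446 CPM (log2 fold change -1.24 ± 0.33, edgeR adjusted p 0.0192) and lost its call without high replicate 2 or medium replicate 1. Hsp83 was even among the crowded pools, while Hsp23 in high replicate 3 stood at more than the sum of the other two. Of 21 odorant-binding protein genes 0 rose and 3 fell (median -0.02, which became 0.23 under library totals alone). The falls were 14.3% of the list, against 18.3% of all tested genes. One of the falls was Obp99b, at 3828, 5135 and 3982 CPM against 12343, 7963 and 9779.7 CPM (log2 fold change -1.22 ± 0.19, edgeR adjusted p 0.00462). Without high replicate 3 the list held 5 rises and 4 falls. Idgf1, an imaginal disc growth factor of the chitinase family, was at 35.4, 38.5 and 42.4 CPM against 72.6, 87.1 and 66.5 CPM (log2 fold change -0.96 ± 0.11, edgeR adjusted p 0.00206). It was one of 6 falls among 20 tested genes of discs and disc growth factors, whose median of -0.21 became 0.04 under library totals alone. These falls were 30% of the list, against 18.3% of all tested genes. There were 3 falls without high replicate 2 or medium replicate 3. The remaining lists gave at most 5 calls each: 5 of 72 mitochondrial ribosomal protein genes, 5 of 21 genes of the Malpighian tubule and proton pump and 3 of 27 neuropeptide genes. They also included 2 of 15 genes of glycolysis and glycerol, 2 of 12 transcripts of the mitochondrial genome, 2 of 4 Turandot genes and 0 of 4 genes of the Eig71E cluster. Over all tested genes 39.6% were called. With library totals alone the mitochondrial ribosomal protein list held 30 rises, and without high replicate 1 the list of the Malpighian tubule held 14 falls.

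**Figure D4:**
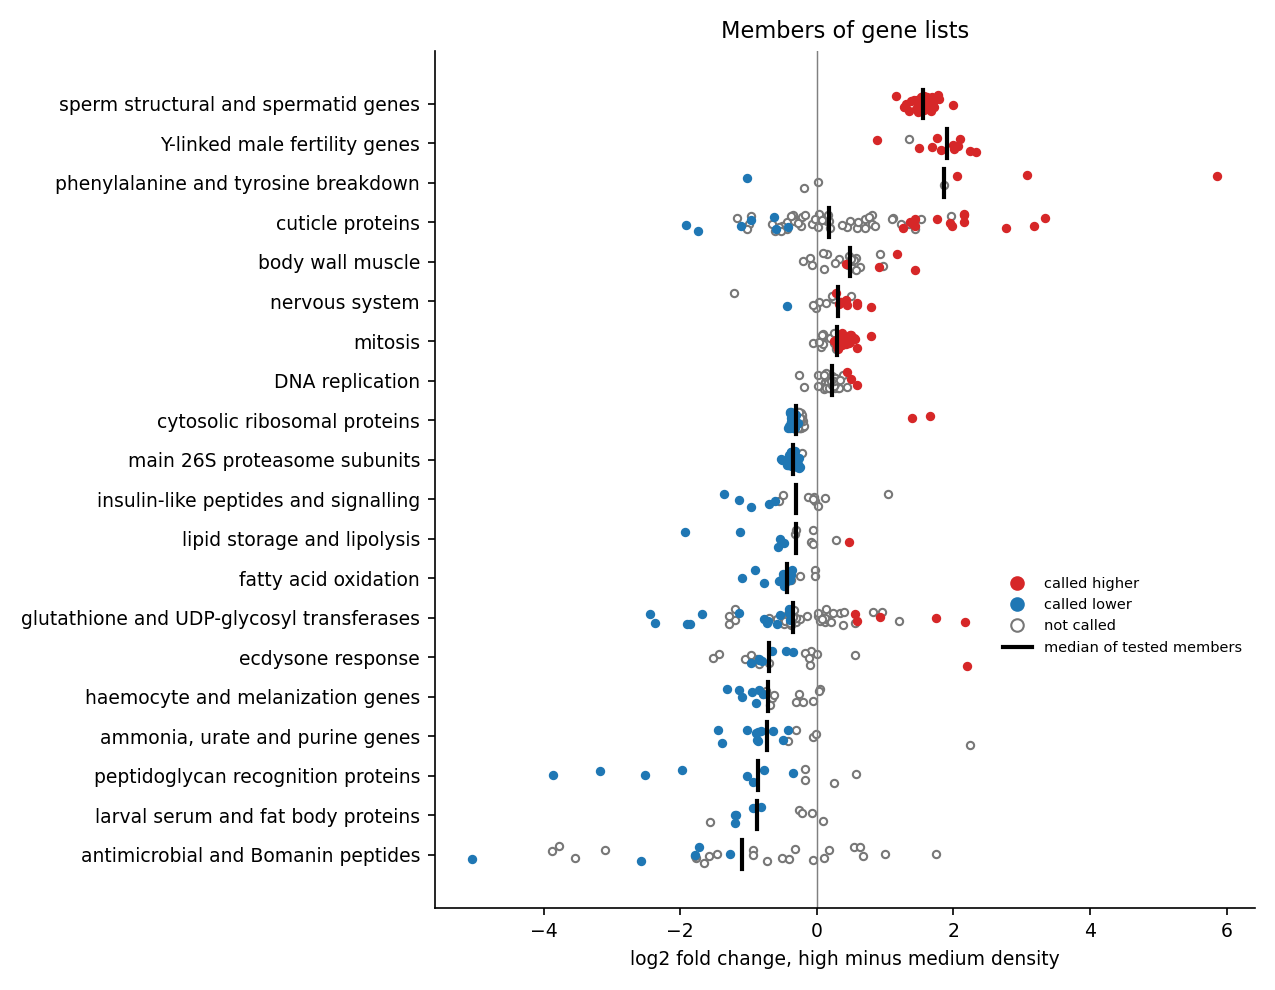
Log2 fold change, high minus medium density (x axis), of each tested member of 20 gene lists (rows), with 1 point per gene, filled red where called higher, filled blue where called lower and open where not called, and a bar at the list median. All sperm structural genes lie right of 1 and all proteasome subunits left of 0, and the widest spread is that of the antimicrobial and Bomanin peptides.

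The 8 largest rises and the 8 largest falls among remaining genes included members of lists described above. Among these were hgo and Hpd of tyrosine breakdown, Cpr47Ec and Cyp6a2 for the rises, and IM1 and PGRP-SB2 of the immune lists for the falls. CG11659, now named Acsx1R, had 17, 260.9 and 87.67 counts at high density and 0, 1.67 and 0 at medium density, at or below the floor, and its counts are in part fractional, so no fold is given. Among rises, CG4962 was at 12.5, 16.2 and 9.08 CPM against 2.36, 0.402 and 1.65 CPM (log2 fold change 3.1 ± 0.52, edgeR adjusted p 0.00564). Of similar size, CG33281 and CG13992 had log2 fold changes of 2.87 ± 0.65 and 2.84 ± 0.75, and CG13992 lost its call without medium replicate 1. CG33281 was not called by limma voom. Among falls, CG3348 was at 2.19, 2.03 and 1.45 CPM against 23.1, 18.4 and 55.4 CPM (log2 fold change -4.1 ± 0.45, edgeR adjusted p 0.00169). CG11459, now named CtsL3, a cathepsin L-type protease gene, was at 11.9, 42.3 and 62.5 CPM against 401, 376 and 321 CPM (log2 fold change -3.23 ± 0.49, edgeR adjusted p 0.00436). CG42586 and CG31775, both with fractional counts in all 9 libraries, fell by 3.25 ± 0.19 and 2.94 ± 0.21 on the log2 scale, and CG43335 was at 0.464, 1.87 and 2.3 CPM against 12.6, 7.82 and 9.54 CPM (log2 fold change -2.68 ± 0.46, edgeR adjusted p 0.0061). IM1, described above, had the largest of the 8 falls (log2 fold change -5.05 ± 1.76), and its call was lost in many alternative fits. The other 2, PGRP-SB2 (log2 fold change -3.86 ± 1.18, edgeR adjusted p 0.031) and CG5697 (log2 fold change -2.91 ± 0.98, edgeR adjusted p 0.0445), had 2, 1 and 85 counts and 2, 24 and 225 counts in the crowded pools. Both PGRP-SB2 and CG5697 lost their calls without high replicate 2 or medium replicate 1, among other libraries.

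**Figure D5:**
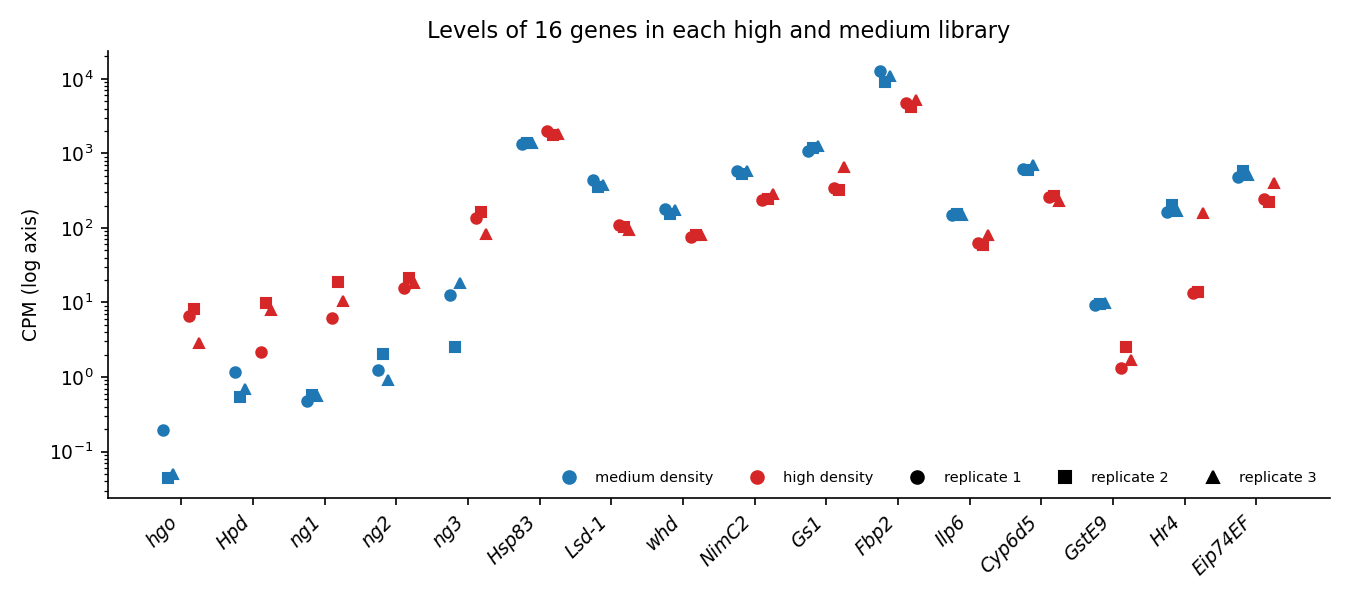
CPM (y axis, log scale) of 16 genes described in the text in each of the 3 medium and 3 high pools, with 1 point per pool, coloured by density and marked by replicate. The crowded pools lie above the medium pools for hgo, Hpd, the ng genes and Hsp83 and below them for the other genes, where high replicate 3 is about level with the medium pools for Hr4.

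Under TMM factors, calls that held in fits with covariates and without single libraries were few and mostly falls. With roX level as a covariate 1131 genes were called (8.78%), with testis score as a covariate 310 (2.41%) and with both 4 (0.031%). A covariate that itself differs between the groups leaves less information on the density, so a call lost in such a fit does not show that the gene varies with testis content. Calls were kept with each covariate in turn and without each of the 6 libraries in turn by 202 genes (1.57%). These were 166 remaining genes, of which 16 rose and 150 fell, 33 X-linked genes, of which 4 rose and 29 fell, and fru, chinmo and zfh1. No testis-listed or Y-linked gene was among them, and in the fit with testis score the listed genes make up their own covariate. All of these fits used TMM factors. With these factors, the 9310 remaining genes with a correlation under 0.9 gave 1011 rises and 1951 falls in the main fit. Library totals alone gave 2842 rises and 781 falls. The balance of kept rises and falls under other scalings was not tested.

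Among remaining genes, the kept rises with the largest fold change were hgo, Cht9, Lip3, CG8087, CG17362 and CG6333. They are the 6 largest of that class whose mean reached 5 CPM at high density, and the kept X-linked rises ng2, ng3 and CG14265 (log2 fold change 2.31 ± 0.46) were larger than some of them. Cht9 (2R, 21067992 to 21069286), of the chitinase family, was at 50.7, 35.7 and 15.3 CPM at high density and 7.64, 4.87 and 4.09 CPM at medium density (log2 fold change 2.61 ± 0.42, edgeR adjusted p 0.00503). Lip3 (3R, 13370240 to 13371904), a lipase gene, was at 79.6, 62 and 57.2 CPM against 17.7, 7.11 and 12.6 CPM (log2 fold change 2.41 ± 0.3, edgeR adjusted p 0.00242). CG6333 was at 14.2, 12.9 and 15.5 CPM against 3.99, 3.62 and 3.74 CPM (log2 fold change 1.91 ± 0.14, edgeR adjusted p 0.000809). The crowded pools of Cht9 differed more than 3-fold among themselves, whereas those of CG6333 were nearly even. CG8087 and CG17362 had log2 fold changes of 2.15 ± 0.51 and 2.07 ± 0.47. Among remaining genes whose mean reached 5 CPM at medium density, the largest kept falls were CG3348, CG42586, CG11459, CG31775, GstE9 and lncRNA:CR46100. The last was at 0.717, 1.3 and 1.87 CPM against 5.72, 6.97 and 6.09 CPM (log2 fold change -2.26 ± 0.31, edgeR adjusted p 0.00292). Under that limit, at a mean of 2.6 CPM at medium density, fit had a kept fall of -2.41 ± 0.33, larger than those of GstE9 and lncRNA:CR46100. Of the genes described above, Lsd-1, whd, AdSL, Paics, NimC2, Sp7, srp, Ilp6, Cyp6d5, Mal-A8, Idgf1, ng2, ng3, TwdlG, Cyp313a5, CG10962, fru, chinmo and zfh1 were also kept.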

How the data were processed

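The deposited table holds expected counts for 17759 genes in 9 libraries of poly(A)-selected, strand-specific RNA. Read pairs were assigned by the authors to gene symbols on the matching strand (featureCounts 1.6.2, exons of RefSeq Release 6, per the file headers). They split pairs that map to several places into fractions, so the counts of near-identical copies are uncertain. The submitters' processing notes also name Trim Galore 0.6.4, HISAT2 2.1.0, SAMtools 1.9, DESeq2 1.26.0, R 3.6.1 and build dm6, with no roles given. The deposited counts differ in their library totals and were taken as not normalized.

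Counts were rounded and fitted with edgeR 4.0.16 in R 4.3.3 over all 9 libraries: filterByExpr, TMM factors, 1 coefficient per density and the quasi-likelihood F-test of high minus medium density, with Benjamini-Hochberg adjustment over the 12883 genes tested and a threshold of 0.05. The script was tested on simulated data. Log2 CPM used a prior count of 2; fold changes are log2 values with SE from the F statistic. No 2 replicate libraries agreed within sampling noise (chi-square per degree of freedom 16.2 to 185.3). Correlations with the testis score (mean log2 CPM of 87 genes) used deviations from density means. Symbols were matched to a RefSeq table of the same assembly (16909 current, 799 older and 51 unmatched). The genes named are, where CPM do not overlap and the higher mean is at least 5 CPM, the 8 largest rises and falls among remaining genes, the 3 among X-linked genes and the 6 among kept remaining genes, with the most abundant members of each of 43 lists; other list members named were chosen after their values were seen. The members and lists were chosen with earlier results of these data known. Alternatives were DESeq2 1.42.0, limma 3.58.1 voom, other scaling factors and filters, the 6 compared libraries alone, the replicate number as a block, roX level and testis score as covariates, genes with whole counts, leaving out mitochondrial and ribosomal RNA genes, and leaving out each library. Counts per list, and most alternatives for genes that do not vary with testis transcripts, were added after seeing the data.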

Additional observations from a re-analysis of the deposited data

How the results depend on the processing

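The count of genes called stayed within 1.5 times of 5102 with no filter (4843), limma voom (5080), library totals alone (5904), RLE factors (5066), DESeq2 (5776), a minimum of 10 counts per library (4673), upper-quartile factors (4971), whole counts (3987) and without mitochondrial and ribosomal RNA genes (4823). Rises made up 53.9% of the calls under TMM factors, 84% under unscaled library totals and 66.5% under upper-quartile factors. With only the 6 compared libraries, which leaves fewer samples to estimate the spread, 3095 genes were called in all, 489 X-linked and 2515 remaining; with whole counts, which leaves fewer genes, 468 X-linked. With roX level as a covariate 1131 genes were called in all, 3 testis-listed, 146 X-linked, 977 remaining and 894 of the remaining genes that do not vary with testis transcripts. With testis score as a covariate the counts were 310 in all, 45 X-linked and 262 remaining, and with both covariates 4, 1 and 3; none of the testis-listed genes was called in these fits, which is not read because they make up the score. Without single libraries the counts ranged from 2675 to 5447 in all, from 51 to 87 testis-listed, from 393 to 880 X-linked, from 2209 to 4425 remaining, and from 1625 to 3084 of remaining genes that do not vary with testis transcripts. With correlation limits of 0.8 and 0.95 the last of these counts was 2652 and 3328. A replicate block gave 4643 calls, 83 testis-listed, 712 X-linked and 3804 remaining; same-numbered high and medium libraries correlated at 0.08, 0.07 and -0.34, so the numbers were not taken to pair them.

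Of 99 named genes, 95 were called, and over 23 alternative fits their results kept direction and side of the threshold in 1727 cases, lost the call in 452, gained it in 4 and changed sign in 14. The sign changed for Rpt6R without high replicate 3 (range over single libraries -0.0203 to 0.322), for kl-2 with testis score (-0.42) and with both covariates (-0.48), and for lncRNA:roX1 with testis score (-0.55). It changed for mle with testis score (-0.0333), with both covariates (-0.0448) and without high replicate 3 or medium replicate 1 (range over single libraries -0.000817 to 0.0582), and for msl-1 with library totals alone (0.11), testis score (0.0666) and both covariates (0.11). With both covariates it also changed for GstO1 (-0.0297), GstD1 (0.0020) and Syt1 (0.0177). With only the 6 compared libraries, PGRP-SB2, CG5697, twe, kl-2, Cpr49Ac, Drs, Hsp23, RpLP1, mof, Eip74EF and Faa were not called. The cause of these moves was not tested. Depth does not limit most tested genes, but genes near 3 counts, such as hgo and IM1 in 1 density, have uncertain fold changes.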

Other observations

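Among the 202 genes that kept their call with each covariate in turn and without each compared library in turn, several lay outside the gene lists, and those given here were chosen after their values were seen. Values are mean CPM ± SD at high against medium density (n = 3 each), with log2 fold changes ± SE. Genes of sphingolipid metabolism among them were the ceramide synthase gene schlank, at 92.3 ± 6.87 CPM against 174 ± 16.3 CPM (-0.92 ± 0.09), the ceramidase gene CDase, at 20 ± 4.43 CPM against 38.7 ± 2.97 CPM (-0.95 ± 0.14), and the lyase gene Sply, at 132 ± 58.1 CPM against 384 ± 28.4 CPM (-1.55 ± 0.26). The kinase genes Sk1 and Cerk, whose products phosphorylate sphingosine and ceramide, had log2 fold changes of -0.93 ± 0.11 and -0.84 ± 0.14. Both ferritin chain genes of the secretory pathway, which store iron, were lower: Fer1HCH was at 461 ± 51 CPM against 797 ± 54.8 CPM and Fer2LCH at 313 ± 20.7 CPM against 576 ± 37.3 CPM. Of the Toll pathway, spz, which codes for the ligand, was at 19.2 ± 1.95 CPM against 52.4 ± 1.81 CPM (-1.45 ± 0.12), and GNBP3, a sensor of fungal glucans, at 117 ± 8.96 CPM against 223 ± 10.9 CPM (-0.93 ± 0.09). Also kept were the activin-type ligand gene daw (-1.01 ± 0.07) and the peptide gene CCHa2 (-1.12 ± 0.14). The kinase gene Atg1, which starts autophagy, was at 57.5 ± 12.5 CPM against 121 ± 2.04 CPM (-1.07 ± 0.14).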
